A study of Mus musculus with 6 samples.

Results

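The 8 genes described here are Clk1, Clk2, Clk4, Mdm4, Wsb1, Prpf39, Nufip2 and Fam193b, of 24982 genes in the count tables. They were chosen from earlier results of the same data, as genes of the detained-intron type whose counts appeared high in YY1 siRNA samples 5 and 6 but not in YY1 siRNA sample 4. Their levels in these samples are therefore a description. No p-value is given for a member, and counts of members called by a fit stand beside the share of all genes called and support nothing. The name held only in part: Clk2 was not raised in this way, and Nufip2 has no annotated transcript that keeps an intron. RNA was sequenced from KMWT1 cells, a mouse glioma line grown in serum, 48 hours after transfection. The 3 YY1 siRNA samples (4, 5 and 6) received a commercial siRNA pool against YY1, a zinc finger transcription factor, and the 3 control siRNA samples (1, 2 and 3) a control siRNA. All 6 come from the same line, and the labels do not say whether they were grown apart. A p-value here thus reflects sample-to-sample spread that could be purely technical.

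A detained intron is an intron that stays in a polyadenylated transcript after the others have been removed. Such transcripts are held in the nucleus, where they are later spliced or degraded, so they form a store of RNA that is not translated. The Clk genes encode CDC-like kinases, which phosphorylate serine- and arginine-rich (SR) splicing factors, and transcripts of Clk1 and Clk4 are well-known carriers of such introns. Mdm4, which encodes an inhibitor of p53, is another known case.

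In mm10, Clk1 is at chr1:58410189-58424066 and Mdm4 at chr1:132959484-133030561, both on the minus strand. Clk4 is at chr11:51261730-51281766 and Nufip2 at chr11:77686155-77741921 on the plus strand, and Wsb1 at chr11:79239372-79254671 on the minus strand. Clk2 is at chr3:89164795-89176921 and Prpf39 at chr12:65036333-65063386 on the plus strand, and Fam193b at chr13:55539316-55571120 on the minus strand.

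The annotated introns that these genes can keep are shown first, because they do not depend on the counts. Introns 3 and 4 of Clk1, Clk2 and Clk4 are each kept whole inside an exon of at least 1 transcript that the GENCODE M21 annotation (mm10) classes as a retained intron. They flank exon 4, which has 91 bases in Clk1, 88 in Clk2 and 91 in Clk4, so that its skipping shifts the reading frame in all 3 genes. The 5′ ends of intron 4 follow, read from the annotated transcripts, 5′ to 3′, each with 10 bases of exon and 20 of intron, and with the GT that opens the intron in capitals.
Clk1 intron 4, 5′ end, chr1:58420101-58420130, minus strand: agtgcaagatGTatagaatatttttcaaca
Clk4 intron 4, 5′ end, chr11:51273159-51273188, plus strand: agagcaagatGTatagaatatttttcaaca
Clk2 intron 4, 5′ end, chr3:89169693-89169722, plus strand: caagagcgatGTacaagccaaatcgtaaca

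Clk1 and Clk4 shared 29 of 30 bases at the 5′ end of intron 4, including all 20 intronic bases. Clk2 shared 14 of 30 with Clk1 and 15 of 30 with Clk4. The 5′ splice site pairs with U1 snRNA, and the sequence that pairs fully is CAGGTAAGT. Over its 9 letters, intron 4 matched at 4 positions in each of the 3 kinases. That was the lowest number among the 13 introns that 5 of the 8 members are annotated to keep. Of 5869 such introns in 3022 other tested genes, 4.65% matched at 4 positions or fewer, and the median was 6. These matches describe the letters only and do not show how well a site is used.

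Fam193b is annotated to keep introns 6 (866 bases) and 8 (126 bases) of 10. Their 5′ ends, shown to set beside the kinases, each matched the U1 sequence at 6 positions.
Fam193b intron 6, 5′ end, chr13:55550204-55550233, minus strand: ccacaatgcgGTgagtgagcctgcctgggc
Fam193b intron 8, 5′ end, chr13:55542764-55542793, minus strand: tcctccttggGTgagtgcaccaggaaccaa

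**Figure D1:**
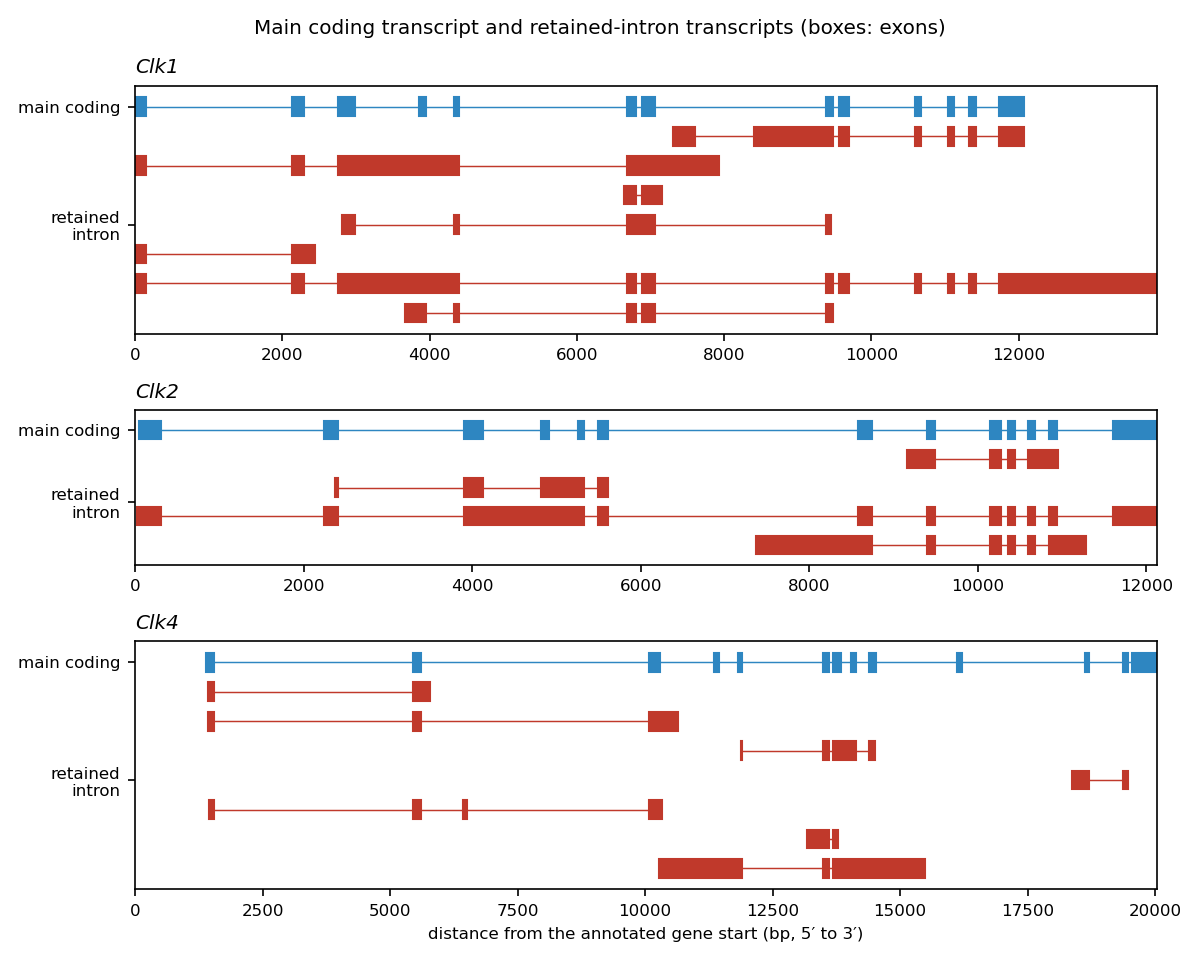
Gene models of Clk1, Clk2 and Clk4, with the main coding transcript in blue and the transcripts classed as retained intron in red. Boxes are exons, lines are introns, and the x axis is the distance from the annotated gene start in base pairs, read 5′ to 3′. Wide red boxes that span 2 or more blue exons mark kept introns, as at exon 4 of each gene.

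Most members had many annotated non-coding variants. They were chosen as genes of the detained-intron type, so the comparison with other genes here describes the choice. Clk1 has 7 retained-intron transcripts among 13, Clk4 7 among 14, Prpf39 6 among 10 and Mdm4 5 among 14. Clk2 and Fam193b have 4 each, Wsb1 has 2 and Nufip2 has 0. The median was 4.5 for the members and 1 for the 11574 protein-coding genes tested, of which 7.83% had at least as many as that median. Annotated transcripts that nonsense-mediated decay would remove numbered 0 to 3 a member, with a median of 2, against 0 for all protein-coding genes tested. Gene length was not unusual, with a median of 23546 bases for the members and 24876 bases for protein-coding genes tested. In Mdm4 and Wsb1 no intron of the main coding transcript is kept whole by an annotated transcript. Nufip2 has only 3 introns.

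**Figure D2:**
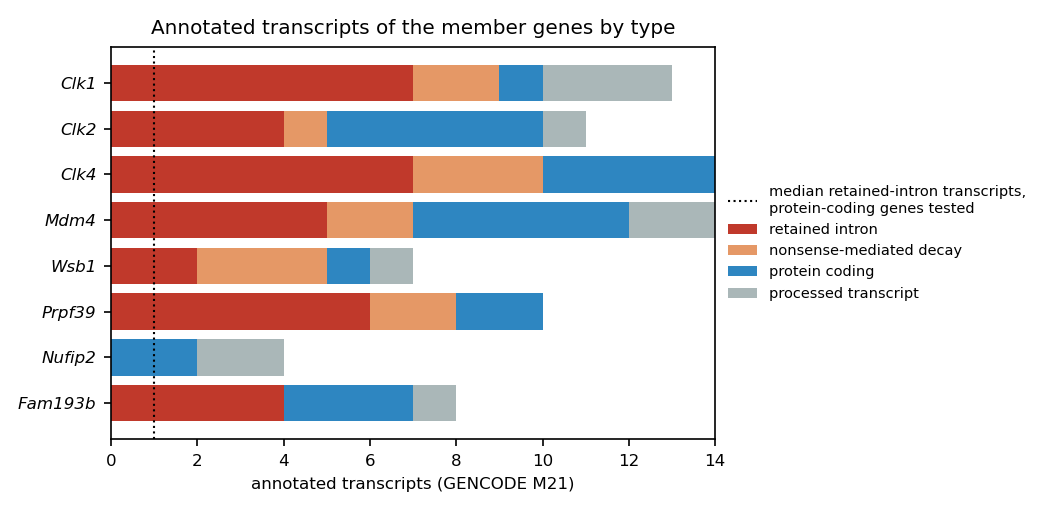
Number of annotated transcripts of each member, by type, in GENCODE M21. The dotted line marks the median number of retained-intron transcripts over protein-coding genes tested, 1, and Nufip2 is the member with 0.

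Counts in genes ranged from 15738457 to 19210104 in YY1 siRNA samples and from 18680762 to 20644057 in control siRNA samples. Yy1 stood at 81.2, 77.6 and 78.6 CPM (counts scaled to a common library size with the trimmed mean of M-values, TMM) in YY1 siRNA samples 4, 5 and 6, against 127, 128 and 126 CPM in control siRNA samples 1, 2 and 3. It was thus lowered in all 3 YY1 siRNA samples, sample 4 included (log2 fold change -0.68, edgeR adjusted p 0.00154). No other of 12148 genes tested passed in that fit. In these bulk samples fewer cells of a kind and less RNA per cell cannot be told apart. Of 12 glioma and neural progenitor markers, 8 stood at 10 CPM or more, Sox2 and Nes among them, and 4 under 1 CPM. Of those 4, Olig2, Prom1 and Fabp7 were at 0 and Gfap averaged 0.035 CPM. Erythrocyte markers summed to at most 0.0519 CPM in a sample, neuron markers to 9.60 to 10.1 CPM in YY1 siRNA and 10.1 to 11.9 CPM in control siRNA samples, and microglia and macrophage markers to 28.2 to 32.6 and 25.5 to 32.3 CPM. Oligodendrocyte markers summed to 16.2 to 20.6 and 19.6 to 20.8 CPM, endothelial markers to 152 to 188 and 165 to 194 CPM, and fibroblast and pericyte markers to 838 to 1065 and 992 to 1158 CPM. Mean levels over the samples were under 1 CPM for 6 of 8 neuron and 5 of 7 oligodendrocyte markers. The same held for 8 of 9 microglia and macrophage, 6 of 8 endothelial and 2 of 9 fibroblast and pericyte markers. Cd68 averaged 29.1 CPM, Flt1 123 CPM and Col3a1 839 CPM, most of the microglia, endothelial and fibroblast sums.

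Among the kinases, the members differed from each other. Clk1 stood at 203, 237 and 279 CPM in YY1 siRNA samples 4, 5 and 6, against 208, 232 and 218 CPM in control siRNA samples 1, 2 and 3. YY1 siRNA sample 6 was well above all controls, sample 5 lay just above the highest of them, and sample 4 was the lowest of the 6. Clk4 stood at 66.4, 76.1 and 94.3 CPM in YY1 siRNA samples, against 61.1, 65.7 and 64.2 CPM in control siRNA samples. It was the only member whose groups did not overlap, since even sample 4 lay slightly above the highest control. Over all genes tested, 16.3% had groups that did not overlap, and in 7.36% of all genes tested YY1 siRNA was the higher group, the background for this count of 1 in 8.

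Clk2 had few counts, 171 to 235 a sample. It stood at 11.7, 12.3 and 11.2 CPM in YY1 siRNA samples, against 8.95, 12.2 and 10.5 CPM in control siRNA samples. Control siRNA sample 1 was the lowest and the other 5 lay close together. The 95% counting interval of YY1 siRNA sample 6 was 9.55 to 13.0 CPM, and that of control siRNA sample 2 was 10.7 to 13.9 CPM (exact Poisson, counting error only). At this depth no rise of Clk2 in samples 5 and 6 over the other samples was detectable.

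Wsb1 and Mdm4 act in ubiquitin ligation and in the control of p53. Wsb1, the substrate receptor of an elongin-cullin ubiquitin ligase, stood at 240.3, 337 and 393 CPM in YY1 siRNA samples 4, 5 and 6, against 215, 229 and 261 CPM in control siRNA samples 1, 2 and 3. Samples 5 and 6 were above every other library, while sample 4 lay within the range of the controls. Mdm4 stood at 82.5, 114 and 121 CPM in YY1 siRNA samples, against 84.1, 87.1 and 92.1 CPM in control siRNA samples. Here sample 4 was the lowest of the 6 and samples 5 and 6 were again the highest.

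Prpf39, a splicing factor that associates with the U1 snRNP, stood at 88.5, 118 and 130 CPM in YY1 siRNA samples, against 83.5, 94.3 and 92.4 CPM in control siRNA samples. Nufip2, an RNA-binding partner of the fragile X protein FMRP, stood at 87.1, 118 and 119 CPM, against 86.5, 89.5 and 88.0 CPM. Fam193b stood at 80.0, 113 and 117 CPM, against 74.3, 84.5 and 84.8 CPM. In these 3 genes samples 5 and 6 were above every other library, and sample 4 fell within the range of the controls. Prpf39 overlaps the gene Fkbp3 on the other strand by 599 exon bases and Clk4 shares 59 with the small RNA gene Gm25082, on its own strand. How reads in these overlaps were counted is not known, and for Prpf39 it also depends on the strand setting.

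**Figure D3:**
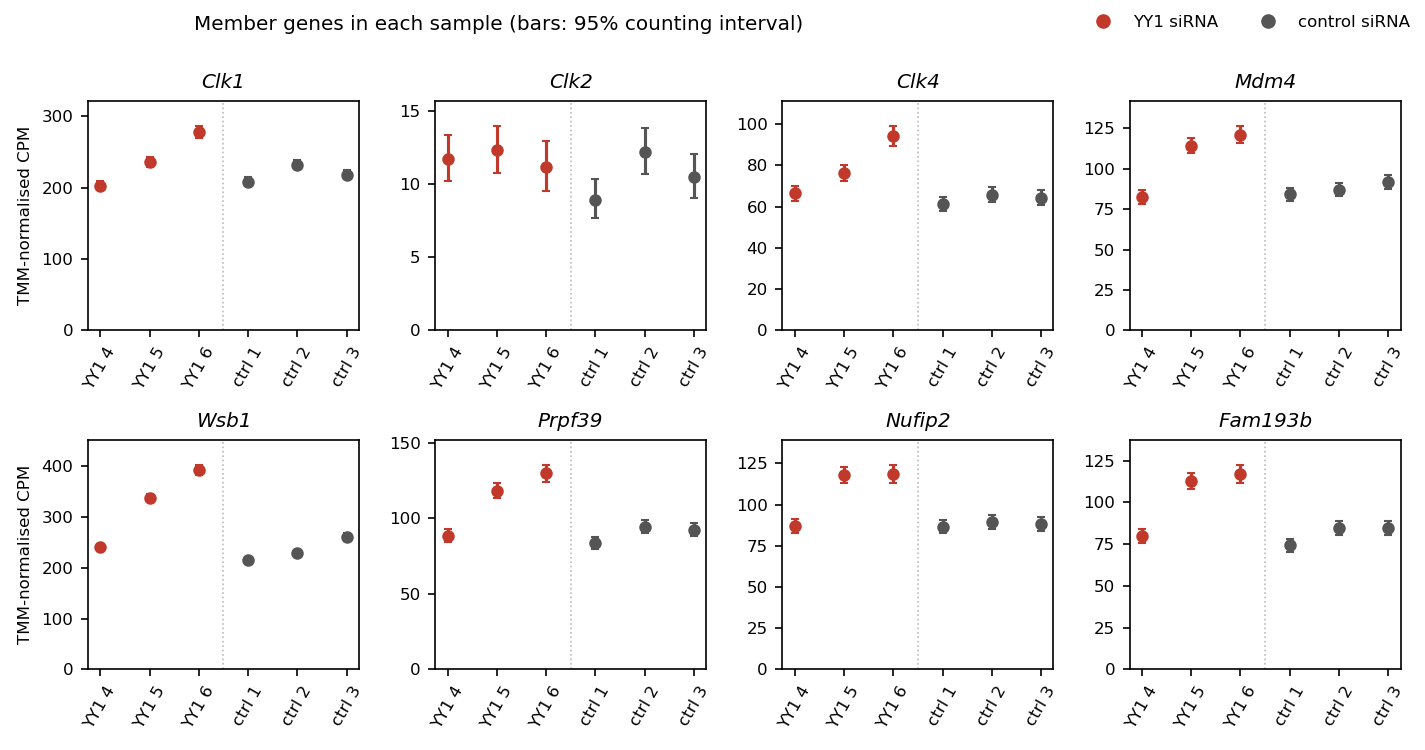
TMM-normalised CPM of each member in YY1 siRNA samples 4 to 6 (red) and control siRNA samples 1 to 3 (grey), with 95% exact Poisson intervals for counting error. Samples 5 and 6 stand above the other 4 in every panel but that of Clk2, by least in Clk1.

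Counted over the members, 7 of 8 had both YY1 siRNA samples 5 and 6 above the other 4 samples, and Clk2 did not. Over all genes tested this held for 13.4%. The members were chosen for this pattern, so the comparison describes the choice and supports nothing. Group means were 324 ± 77.4 CPM in YY1 siRNA and 235 ± 23.6 CPM in control siRNA samples for Wsb1 (SD, n = 3 each). They were 239 ± 38.1 and 220 ± 12.2 CPM for Clk1. The SD of the YY1 siRNA samples was larger than that of the controls in 7 members and smaller in Clk2 (0.579 and 1.63 CPM).

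Per kilobase of the main coding transcript, Clk1 and Wsb1 were the most abundant, at 133 ± 21.2 and 131 ± 31.3 CPM per kb in YY1 siRNA samples and 122 ± 6.79 and 94.98 ± 9.54 CPM per kb in control siRNA samples. Mdm4, Nufip2, Clk4, Prpf39 and Fam193b followed in that order in both groups, and Clk2 was the scarcest at 5.55 ± 0.274 CPM per kb in YY1 siRNA and 4.99 ± 0.770 CPM per kb in control siRNA samples. In control siRNA samples no neighbours in this order overlapped. In YY1 siRNA samples Clk1 overlapped Wsb1, Mdm4 overlapped Nufip2, Nufip2 overlapped Clk4, and Prpf39 overlapped Fam193b. The order rests on 1 transcript a gene and would shift with another.

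The level of the members is set beside the share of counts that fell in no gene, as it was when they were chosen. Their median log2 difference from the control mean was -0.017, 0.39 and 0.50 in YY1 siRNA samples 4, 5 and 6, and -0.092, 0.053 and 0.026 in control siRNA samples 1, 2 and 3. The share of all counts assigned to no gene was 7.87%, 10.7% and 11.3% in YY1 siRNA samples, against 7.99%, 8.64% and 9.03% in control siRNA samples. YY1 siRNA samples 5 and 6 were highest in both measures, while the other 4 samples did not follow the same order in the level as in the share. YY1 siRNA sample 6 also had the fewest counts in genes, and it is the only library whose table lacks the word combined in its name. Which of these, if any, plays a part in the members' level was not tested.

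**Figure D4:**
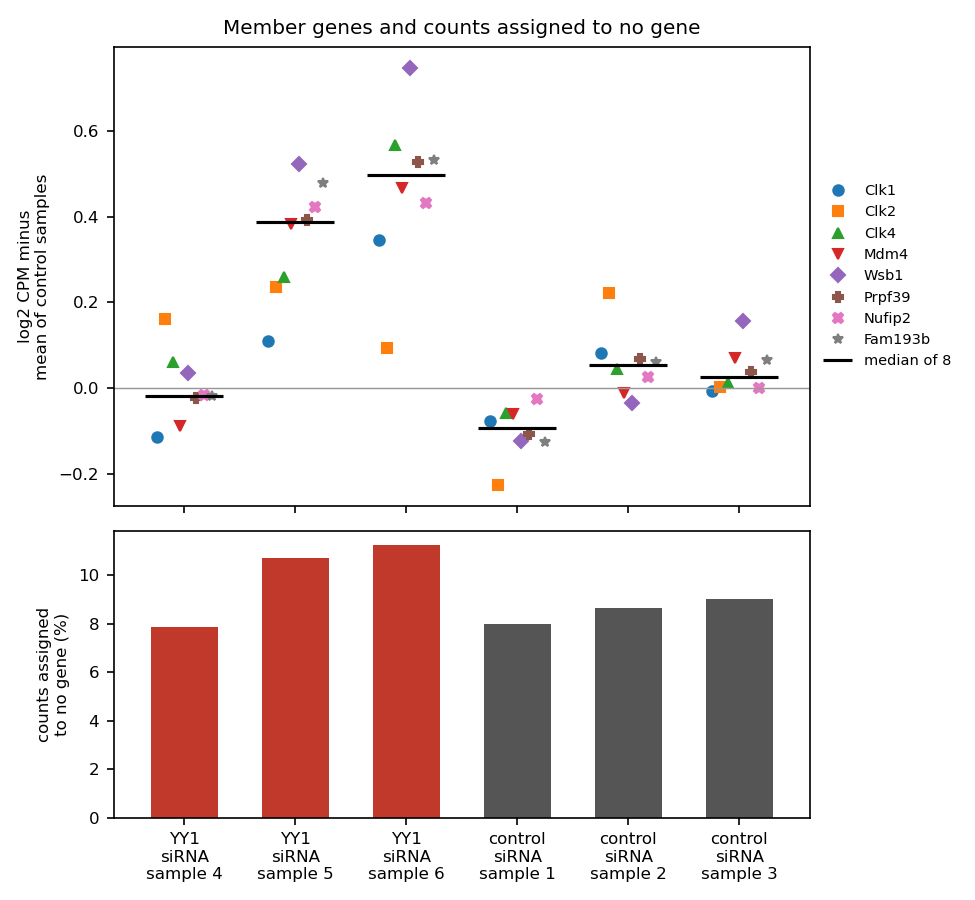
Top, log2 CPM of each member minus its mean over the control siRNA samples, with the median of the 8 genes as a bar. Bottom, the share of each sample's counts assigned to no gene, in percent, with YY1 siRNA samples in red and control siRNA samples in grey; samples 5 and 6 are highest in both.

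The fitted change of the members depended on which libraries entered the fit. With all 6 samples the median log2 fold change of the members was 0.30, from 0.12 for Clk1 to 0.46 for Wsb1, and the median over all genes tested was 0.00070. With edgeR's quasi-likelihood test, 0 of 8 members had an adjusted p under 0.05, where 0.00823% of all genes did. DESeq2 and limma-voom also called 0 of the 8, where they called 19 of 12854 and 1 of 12148 genes tested. Without YY1 siRNA sample 4 the members' median was 0.43 and 5 of 8 were called higher (Wsb1, Fam193b, Prpf39, Nufip2 and Mdm4), against 0.196% of all genes tested. That fit holds the libraries for which the members were chosen, so its calls are not evidence. Without YY1 siRNA sample 6 the median was 0.19 and Clk1 stood at -0.0065. Once the no-gene share entered as a covariate, the median was 0.096, from -0.047 for Clk1 to 0.15 for Wsb1. The members were chosen for YY1 siRNA samples 5 and 6, which also have the highest share. That fit therefore cannot tell the share from the choice, and whether the share plays a part was not tested.

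**Figure D5:**
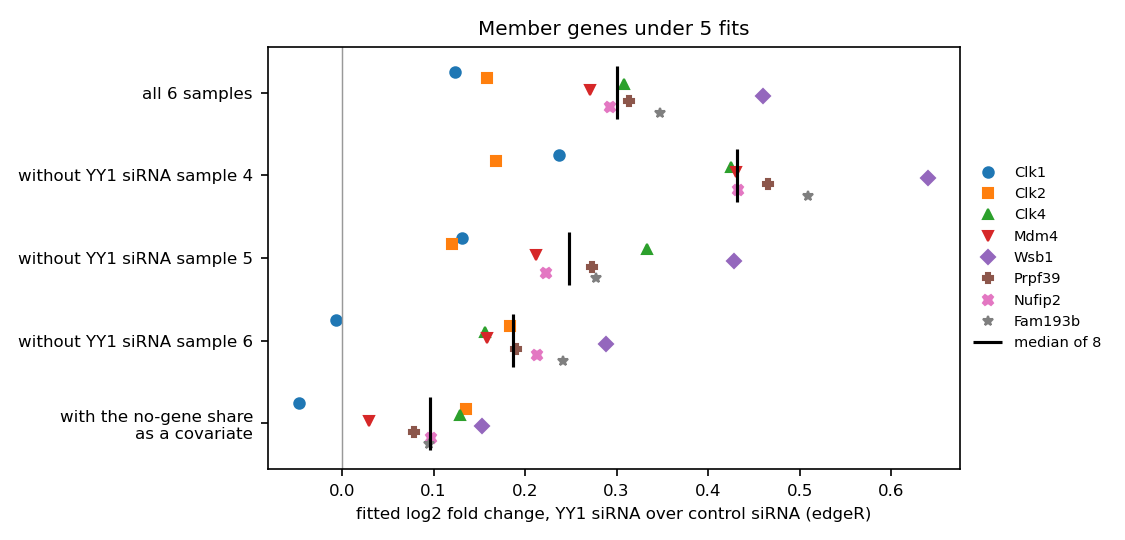
Fitted log2 fold change of each member, YY1 siRNA over control siRNA, from edgeR with all 6 samples, without each YY1 siRNA sample in turn, and with the no-gene share as a covariate. The black bar is the median of the 8 genes, which lies between 0.096 with the covariate and 0.43 without sample 4.

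Every member but Prpf39 was set beside a gene of related name outside the 8, called a relative here and not chosen for its counts. Whether the genes of a pair, such as Nufip2 and Nufip1, share descent was not tested. Clk3 stood at 118, 112 and 122 CPM in YY1 siRNA samples 4, 5 and 6, against 106, 111 and 108 CPM in control siRNA samples (log2 fold change 0.11, SE 0.067, edgeR adjusted p 0.534). Mdm2, the ubiquitin ligase that destabilises p53, stood at 208, 212 and 239 CPM, against 196, 209 and 205 CPM (0.11, SE 0.076, edgeR adjusted p 0.588). In Clk3, sample 5 was the lowest YY1 siRNA sample, and in Mdm2 samples 4 and 5 lay close together and near the highest control. Wsb2 stood at 181, 171 and 152 CPM in YY1 siRNA samples, against 170.2, 159 and 163 CPM in control siRNA samples, so that sample 6, the highest library for Wsb1, was the lowest for Wsb2. Nufip1 stood at 33.9, 27.7 and 31.99 CPM in YY1 siRNA samples, against 28.9, 28.5 and 30.3 CPM in control siRNA samples (edgeR adjusted p 0.697). Fam193a stood at 36.2, 42.4 and 39.9 CPM, against 41.4, 39.6 and 41.3 CPM (edgeR adjusted p 0.841). Among these 5 relatives, only Mdm2 had samples 5 and 6 both above the other 4, by a small margin in sample 5.

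Ratios within a library do not depend on scaling. The log2 ratio of Wsb1 to Wsb2, relative to the control mean, was -0.11, 0.46 and 0.85 in YY1 siRNA samples 4, 5 and 6, against -0.18, 0.0094 and 0.17 in control siRNA samples 1, 2 and 3. For Nufip2 to Nufip1 it was -0.23, 0.50 and 0.30, against -0.0090, 0.062 and -0.053. For Fam193b to Fam193a it was 0.15, 0.42 and 0.56, against -0.15, 0.10 and 0.046. In all 3 ratios samples 5 and 6 lay above every control, while sample 4 lay below every control for Nufip2, within their range for Wsb1 and above every control for Fam193b. The ratios of Clk1 and Clk4 to Clk3 and of Mdm4 to Mdm2 had samples 5 and 6 above every control and sample 4 below. The ratio of Clk2 to Clk3 did not, at 0.039, 0.19 and -0.072 in YY1 siRNA samples, against -0.19, 0.19 and 0.0039 in control siRNA samples. The ratio of Clk1 to Clk4 behaved otherwise, at -0.18, -0.15 and -0.22 in YY1 siRNA samples, against -0.018, 0.037 and -0.020 in control siRNA samples. It was lower in all 3 YY1 siRNA samples than in all 3 controls, sample 4 included, as a description of 2 genes chosen from these data. In sample 4 the ratios to relatives also rest on those relatives. There Clk3, Wsb2 and Nufip1 lay above every control and Fam193a below every control. Of the members, Wsb1, Nufip2 and Fam193b lay within the range of the controls in that sample, Clk4 slightly above it, and Clk1 and Mdm4 below it.

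Other genes known for retained or detained introns came from a list written out from general knowledge, but with earlier results of these data known. Of its 36 genes 0 passed the edgeR threshold in either direction, with a median log2 fold change of 0.11 against 0.00070 for all genes tested. At an unadjusted p under 0.05 there were 5 higher and 0 lower. Among them Luc7l3, a U1-associated splicing factor, averaged 171 ± 22.5 CPM in YY1 siRNA and 143 ± 4.80 CPM in control siRNA samples (SD, n = 3 each, edgeR adjusted p 0.364). Ccnl2, a cyclin of splicing-factor kinases, stood at 106, 136 and 144 CPM in YY1 siRNA samples, against 102, 111 and 108 CPM in control siRNA samples (edgeR adjusted p 0.401). The median log2 level of the 36 genes, relative to the controls, was -0.065, 0.15 and 0.24 in YY1 siRNA samples 4, 5 and 6, against -0.020, 0.0030 and 0.011 in control siRNA samples. In 24 of the 36, samples 5 and 6 were both above the other 4 libraries, against 13.4% of all genes tested. Ogt and Tet2 in this list were known from earlier results to be high in these libraries. The count of 24 is thus a description and not independent of the choice of the members. Of the nuclear-retained noncoding RNAs 8 were tested and 0 passed. Their medians were -0.33, 0.22 and 0.32 in YY1 siRNA samples, against -0.13, 0.017 and 0.19 in control siRNA samples. In 6 of these 8, samples 5 and 6 were both above the other 4 libraries, which is likewise a description. Malat1, a long noncoding RNA of nuclear speckles, stood at 362, 704 and 770 CPM in YY1 siRNA samples, against 515, 456 and 615 CPM in control siRNA samples (edgeR adjusted p 0.783).

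The targets and partners of the member proteins gave no calls. Of 12 SR protein genes tested, substrates of the CLK kinases, 0 passed (median log2 fold change 0.062, above 0 in 9). Tra2a averaged 139 ± 24.8 CPM in YY1 siRNA and 117 ± 5.29 CPM in control siRNA samples. Srsf4 and Tra2b were lower in YY1 siRNA samples, with log2 fold changes of -0.12 and -0.11 (edgeR adjusted p 0.540 and 0.619). In 6 of the 12, Tra2a among them, samples 5 and 6 were both above the other 4 libraries, and in 1 both below them. Of 14 other kinases of splicing factors 0 passed (median 0.047). Among 18 genes of the U1 snRNP and its partners 0 passed (median 0.15), while Tial1, Rbm25, Snrpb and Luc7l3 had an unadjusted p under 0.05 and none was lower at that p. Samples 5 and 6 were both above the other 4 libraries in 6 of these 18 and both below them in 1. Of 23 tested genes of p53 and its targets 0 passed (median 0.050), with 4 higher at an unadjusted p under 0.05. The list was mixed, with log2 fold changes above 0 in 13 of the 23. Samples 5 and 6 were both above the other 4 libraries in 8 of the 23 and both below them in 6. Over all genes tested these shares were 13.4% and 14.5%. The p53 target Trp53inp1 stood at 36.8, 43.5 and 46.1 CPM in YY1 siRNA samples, against 30.6, 34.6 and 31.7 CPM in control siRNA samples (edgeR adjusted p 0.187), and Btg2 stood at 13.7, 15.9 and 14.1 CPM, against 11.8, 9.97 and 11.2 CPM (edgeR adjusted p 0.217).

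None of 11 elongin-cullin ligase genes (median 0.082), 12 partners of Nufip2 (median 0.015), 14 nonsense-mediated decay factors (median 0.0021) or 18 genes of the nuclear exosome and nuclear retention (median -0.0047) passed. Vhl, a substrate receptor like Wsb1, averaged 103 ± 8.51 CPM in YY1 siRNA and 87.0 ± 10.1 CPM in control siRNA samples (edgeR adjusted p 0.379). Rc3h2, a Roquin protein that Nufip2 assists, averaged 60.7 ± 7.96 and 50.5 ± 3.42 CPM (edgeR adjusted p 0.362). The partners Caprin1 and Usp10 were lower in YY1 siRNA samples, with log2 fold changes of -0.13 and -0.15 (edgeR adjusted p 0.521 and 0.524). Smg6 and Exosc7, of the decay and exosome lists, were lower too, at -0.15 and -0.19 (edgeR adjusted p 0.468 and 0.473). Log2 fold changes were above 0 in 7 of the 12 partners, 7 of the 14 decay factors and 9 of the 18 exosome and retention genes. Of the 157 related genes tested in all 11 lists, each counted once, 15 were higher and 0 lower at an unadjusted p under 0.05, against 653 higher and 663 lower over all genes. DESeq2 and limma-voom called 0 of the 157, where they called 19 of 12854 and 1 of 12148 genes tested.

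The comparison was then widened to all genes with an annotated retained intron, none of them a member. Over 7042 other genes with at least 1 retained-intron transcript, minus 5008 genes with none, the median log2 difference from the controls was -0.0028, 0.0064 and -0.019 in YY1 siRNA samples 4, 5 and 6, and 0.0058, 0.0022 and -0.011 in control siRNA samples 1, 2 and 3. The groups overlapped (difference of means -0.0042, exact permutation p 0.7, two-sided, smallest possible 0.1). Genes with 3 or more such transcripts had samples 5 and 6 both above the other 4 in 15.7% of cases, those with 1 to 2 in 11.97% and those with none in 13.3%. These classes also differ in level and in how many transcripts are annotated, with medians of 9, 5 and 3.

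By profile over the 6 samples, Prpf39, Mdm4 and Fam193b lay closest to the median of the 8 members, and Clk2 farthest. The measure is the root-mean-square difference of log2 levels, each centred on its own mean, and it was 0.019, 0.032 and 0.036 for those 3, 0.11 for Clk1 and Wsb1, and 0.20 for Clk2, which ranked 3622 of 12148 tested genes. Outside the members, the 10 genes most like the median were Tpcn2, Tra2a, Epm2aip1, Ccnl2, Mir22hg, Ccnl1, Eml5, 4930581F22Rik, Cahm and Wdfy1, with differences of 0.032 to 0.046. Of these, Tra2a, Ccnl1 and Ccnl2 are on the list of genes known for retained or detained introns, which holds 36 of the genes tested. Both the profile and that list were chosen with earlier results of these data known, so their overlap supports nothing. Eml5 stood at 175, 241 and 245 CPM in YY1 siRNA samples 4, 5 and 6, against 171, 190.1 and 177 CPM in control siRNA samples.

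The YY1 motif was looked for near the starts of the members, since the siRNA lowered that factor. The letters AANATGGCG were searched on both strands in RefSeq windows (GRCm38.p6) from 250 bases before to 50 after a start, which 7 members have (not Clk1). Fam193b and Wsb1 held a match, as did 6.16% of 9576 tested genes with a window. The matches are shown in capitals with 10 bases on either side, read along the gene's strand, with distances from the RefSeq start. In Wsb1 the match lies before the start of the GENCODE model given above, chr11:79254671.
Fam193b, 81 bases before the start, chr13:55571183-55571211, minus strand: ggccttattaAAAATGGCGctggcggctt
Wsb1, 10 bases into the transcript, on the other strand of the motif, chr11:79254668-79254696, minus strand: cagtgccgccCGCCATCTTgtctcagtgt
A match is a description of letters and not a site of binding. Whether YY1 binds there was not tested.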

How the data were processed

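The authors deposited 1 table a sample of raw counts, with rows named by gene symbol. STAR 2.6.1a, edgeR 3.30.0 and the build mm10 are named, per the submitters' processing notes. No source used here gives the counting program, its annotation or its strand setting, so whether reads in kept introns entered the members' counts is unknown. Rows naming no gene (7.87% to 11.3% of counts in no gene, 1.01% to 1.15% ambiguous) stayed out of library sizes and tests. At these depths 3 counts equal 0.145 to 0.191 CPM. Every pair of samples within a group differed by more than counting noise (chi-square over degrees of freedom 3.13 to 32.5).

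Genes were tested two-sided with the quasi-likelihood method in edgeR 4.0.16 under R 4.3.3, with filterByExpr, TMM and robust dispersion, adjusted by Benjamini and Hochberg over all 12148 genes tested, with a threshold of 0.05. List and profile levels used log2(CPM + 0.5). DESeq2 1.42.0, limma-voom (limma 3.58.1) and other settings were alternatives. Gene models came from GENCODE M21, to which 98.0% of symbols matched. A gene's main transcript is its protein-coding transcript with the longest coding sequence, and an intron counts as kept where 1 exon of a retained-intron transcript spans it with 10 bases on either side.

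The members, the lists, the motifs and the alternatives were chosen with earlier results of these data known. Named are all members, their relatives, Yy1, up to 4 genes with the smallest p from each list and the 10 genes of most similar profile. The list genes printed are a selection of these, chosen after their values were seen, as were Ogt and Tet2. Some splice-site sequences are not reported here.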

Additional observations from a re-analysis of the deposited data

Results flagged for a closer look

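Counts that fell in no gene lie outside every test of the report except as a covariate. They made up 11.3% of all counts in YY1 siRNA sample 6 and 10.7% in sample 5, above the highest control siRNA sample, at 9.03%. YY1 siRNA sample 4, at 7.87%, lay below the lowest control, at 7.99%. The members' median log2 difference from the controls was 0.50 in sample 6, 0.39 in sample 5 and -0.017 in sample 4. What these counts consist of was not tested.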

How the results depend on the processing

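No paired analysis was possible because the groups share no sample numbers. The direction of Yy1 and its call were kept under all 8 other settings and without each sample. The number of changed genes, 1 in the main test, was 7 with library size alone, 83 without a filter on low counts, 19 with DESeq2 and 1 to 41 without each sample in turn, reaching 41 when YY1 siRNA sample 4 was left out, 3 for YY1 siRNA sample 6 and 2 for control siRNA sample 3. Related genes that passed, 0 in the main test, numbered 1 without the filter (Trp53inp1, edgeR adjusted p 0.0276) and 0 to 3 without each sample, the 3 being Tet2, Ogt and Trp53inp1 without YY1 siRNA sample 4 (edgeR adjusted p 0.0105, 0.0474 and 0.04998). The median member level in YY1 siRNA sample 6 was 0.40 in place of 0.50 when library size took in counts in no gene, and the levels of samples 4 and 5 moved by less than the spread of the controls. The difference between genes with and without retained-intron transcripts changed sign among protein-coding genes alone (0.0023), a setting added after the data were seen, and ranged from -0.00998 to 0.0028 without each sample, the highest without YY1 siRNA sample 6. With the no-gene share as a covariate the log2 fold changes of Mdm4, Prpf39, Fam193b, Nufip2 and Wsb1 were 0.029, 0.079, 0.095, 0.097 and 0.15. The cause was not tested for any of these. Clk2, with 171 to 235 counts a sample, has wide counting intervals.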
